A study of Homo sapiens with 2 samples.

Results

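The genes NFKB1, NFKB2, REL, RELA and RELB encode the 5 subunits of the transcription factor NF-kB. They were examined in the genome-wide map of the histone methyltransferase KMT2D (MLL4) in OCI-LY7, an established human lymphoma line of the GCB-DLBCL type, a diffuse large B-cell lymphoma resembling germinal centre B cells. The part of the map described here is the set of KMT2D peaks whose highest point lay in a fixed hg19 window around each gene. The windows ran from 103.37 to 103.59 Mb on chromosome 4 for NFKB1, from 104.1 to 104.21 Mb on chromosome 10 for NFKB2, from 61.06 to 61.2 Mb on chromosome 2 for REL, from 65.37 to 65.48 Mb on chromosome 11 for RELA and from 45.45 to 45.59 Mb on chromosome 19 for RELB. They held 26 of the 24824 listed peaks, chosen by position and by no measured value. The data came from 1 ChIP library made with the study's own antibody to the N-terminal part of KMT2D, and 1 input library without antibody was made beside it. Both libraries came from OCI-LY7 cells labelled wild type, for which the labels give no treatment other than formaldehyde fixation. A single line in 1 library stands for no other lymphoma, and no replicate spread could be estimated.

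NF-kB proteins share the Rel homology region, with which they bind DNA and pair with each other. NFKB1 and NFKB2 encode the precursors p105 and p100, which are cut to p50 and p52, while REL (c-Rel), RELA (p65) and RELB carry the activation domains. Inhibitor proteins hold most dimers in the cytoplasm of resting cells; the canonical route frees dimers of RELA and c-Rel with p50, and the alternative route processes p100 and frees RELB with p52. In B cells the pathway acts below the B-cell receptor and CD40, and c-Rel is known for its part in the germinal centre reaction. KMT2D methylates histone H3 at lysine 4, above all at enhancers, and its gene is often mutated in B-cell lymphoma.

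NFKB1, NFKB2 and REL are textbook targets of NF-kB itself, so the annotated promoters of the family were read for kappa B sites, the DNA element that NF-kB binds. RefSeq (build GRCh38.p14) gave 8 promoter entries, of 250 bases before to 50 bases after an annotated start, for NFKB1, NFKB2, REL and RELA. RELB had no entry in the promoter table used and was not searched. The kappa B consensus was searched on both strands, with overlapping matches counted, and was met in 4 of the 8 entries and in 5.91% of all 35116 promoter entries of the table. The looser pattern GGGNNNNNCC, which includes the consensus, was met in all 8 entries and in 58.7% of the table. The 8 entries come from 4 genes, and NFKB1, NFKB2 and REL were known targets beforehand. The shares are therefore no test of enrichment. The 4 entries with a consensus match are shown 5′ to 3′ in the direction of the gene, with the matched bases in capitals. They are printed because they display which of the searched subunit genes carry the family's own element near a start:
NFKB1 (chr4:102501109-102501408, plus strand): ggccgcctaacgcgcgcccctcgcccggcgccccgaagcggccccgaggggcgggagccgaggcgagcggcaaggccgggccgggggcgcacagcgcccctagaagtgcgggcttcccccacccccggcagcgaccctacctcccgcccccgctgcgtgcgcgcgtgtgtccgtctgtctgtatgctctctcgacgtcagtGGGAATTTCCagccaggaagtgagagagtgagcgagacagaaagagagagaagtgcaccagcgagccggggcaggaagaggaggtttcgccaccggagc
NFKB2, middle of 3 entries (chr10:102394328-102394627, plus strand): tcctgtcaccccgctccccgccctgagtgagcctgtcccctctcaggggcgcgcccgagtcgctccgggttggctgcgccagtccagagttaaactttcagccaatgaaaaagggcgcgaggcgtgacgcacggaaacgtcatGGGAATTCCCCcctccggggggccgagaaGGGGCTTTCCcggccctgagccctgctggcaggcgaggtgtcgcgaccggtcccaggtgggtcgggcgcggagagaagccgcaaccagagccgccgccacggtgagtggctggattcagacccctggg
NFKB2, last of 3 entries (chr10:102395455-102395754, plus strand): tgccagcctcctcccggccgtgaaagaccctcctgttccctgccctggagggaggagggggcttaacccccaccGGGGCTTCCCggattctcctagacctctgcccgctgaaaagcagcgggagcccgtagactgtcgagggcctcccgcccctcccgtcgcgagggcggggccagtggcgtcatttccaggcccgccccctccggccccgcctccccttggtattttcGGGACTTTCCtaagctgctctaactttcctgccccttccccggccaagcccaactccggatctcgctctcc
REL (chr2:60881324-60881623, plus strand): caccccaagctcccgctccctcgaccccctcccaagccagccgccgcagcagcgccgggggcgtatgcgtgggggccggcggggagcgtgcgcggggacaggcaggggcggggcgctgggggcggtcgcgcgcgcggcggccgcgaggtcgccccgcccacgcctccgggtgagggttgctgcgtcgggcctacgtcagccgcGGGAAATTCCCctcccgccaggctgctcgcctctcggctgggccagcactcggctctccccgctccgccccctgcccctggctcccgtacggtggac

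In the shown NFKB1 entry the match began 49 bases before the annotated start. The other NFKB1 entry and the first NFKB2 entry held no match to the consensus. The middle NFKB2 entry had matches beginning 107, 106 and 78 bases before its start, the first pair overlapping by all but a base, and the last NFKB2 entry had matches 176 and 21 bases before its start. In REL an overlapping pair began 47 and 46 bases before the start. Neither RELA entry held the consensus. The base content of the shown promoters was high in G and C, at 71.3% in NFKB1, 68.7% and 67.7% in the NFKB2 entries and 79% in REL, against a median of 58.7% over the table. REL held 41 CpG pairs and the RELA entry with most held 48, against a table median of 14. The other RELA entry lay below both medians, with 7 CpG pairs and 51.3% G and C. These positions are on GRCh38 and the peaks are on hg19, so it was not determined which peak, if any, covers a printed sequence. A match describes letters in a window and is no evidence of binding.

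KMT2D peaks were denser than on the chromosome as a whole in 4 of the 5 windows, at NFKB2, REL, RELA and RELB, while NFKB1, with 1 peak, was level with its chromosome by peak number. Together the windows span 0.72 Mb and held 36.1 peaks per Mb (exact Poisson 95% interval 23.6 to 52.9). Their chromosomes, taken at their own densities, would place 7.62 peaks in the same length, and the 26 observed were 3.41 times that number (2.23 to 4.998). The windows were drawn around genes and chromosome densities include long stretches without genes, so this ratio does not set these genes apart from other genes. Intervals reflect the counting of peaks alone, peaks are not independent of each other, and with 1 library no p-value was computed.

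**Figure D1:**
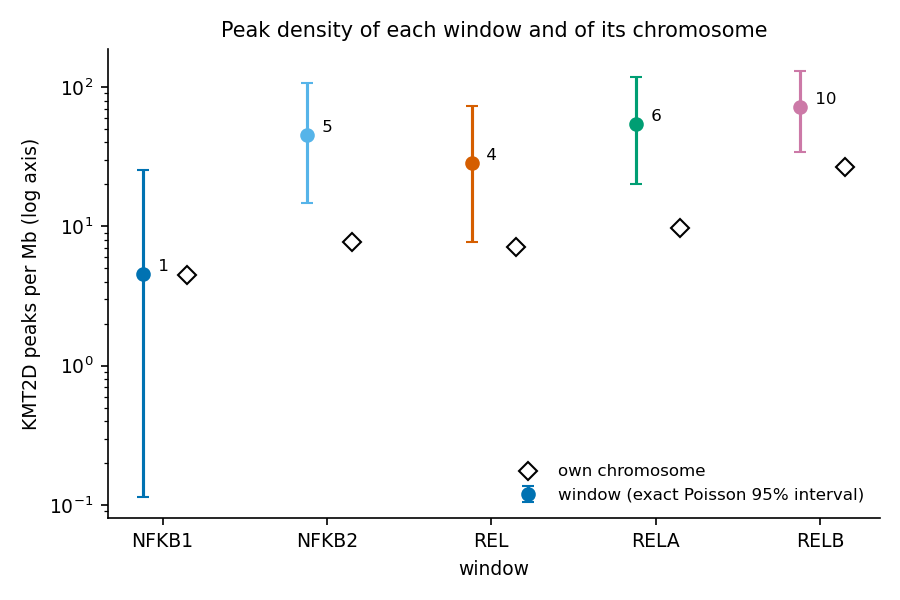
KMT2D peaks per Mb on a log axis, for each window (filled points with exact Poisson 95% intervals, number of peaks beside each point) and for the chromosome it lies on (open diamonds). The NFKB2, REL, RELA and RELB points and their intervals lie above the diamonds, and the NFKB1 point, from 1 peak, lies level with its diamond.

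By density the order was RELB, RELA, NFKB2, REL and NFKB1. RELB had 71.4 peaks per Mb (34.3 to 131.4), RELA 54.5 (20.02 to 118.7), NFKB2 45.5 (14.8 to 106.1), REL 28.6 (7.78 to 73.2) and NFKB1 4.55 (0.115 to 25.3). The intervals of neighbours in this order overlapped in every case, so by counting alone the neighbours were not distinguishable; the intervals of RELB and NFKB1, at the ends of the order, did not overlap. Relative to the own chromosome the order changed. NFKB2 stood 5.89 times above chromosome 10 (1.91 to 13.7), RELA 5.64 times above chromosome 11 (2.07 to 12.3), REL 4.04 times above chromosome 2 (1.10 to 10.3) and RELB 2.68 times above chromosome 19 (1.28 to 4.92), whose own density was 26.7 peaks per Mb. NFKB1 stood at 1.02 times the density of chromosome 4 (0.0257 to 5.67). These ratios depended on what was counted. In covered bases they were 12.6 at NFKB2, 10.9 at RELA, 7.27 at REL, 2.96 at RELB and 2.34 at NFKB1. Among the highest-scoring 50% of peaks they were 11.7, 9.12 and 6.57 at NFKB2, RELA and REL, with 2.39 at NFKB1 and 2.34 at RELB. With windows 25 kb wider at each edge they were 6.48 at NFKB2, 5.82 at RELA, 2.98 at REL, 2.37 at RELB and 0.829 at NFKB1. At a minimum height of 26 the NFKB1 ratio was 1.62. It rested on 1 peak under each of these settings.

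Each chromosome was also divided into windows as wide as the gene's own, laid edge to edge from it. On chromosome 10, 53 of 1224 other windows (4.33%) held as many peaks as the NFKB2 window or more, and 12.8% of those with any peak did. For RELA these shares were 5.01% of 1218 and 14.6%, for RELB 8.37% of 418 and 11.1%, and for REL 8.77% of 1733 and 24.2%. For NFKB1, with 1 peak, they were 31.8% of 865 and 100%, the latter by definition, as every window with any peak holds at least 1. The surroundings differed as well: the window adjoining RELA on the lower-coordinate side held 18 peaks and the one on the other side held 4. RELB had 2 and 8 peaks in the adjoining windows, NFKB2 1 and 7, REL 1 and 2, and NFKB1 2 and 4.

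**Figure D2:**
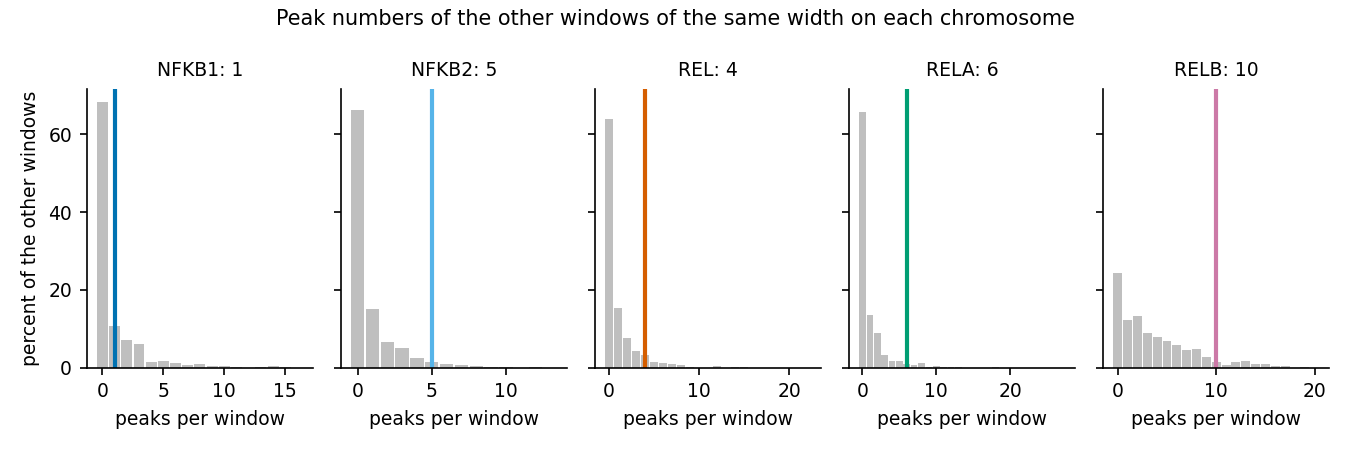
Percent of the other same-width windows of the chromosome (vertical axis) by the number of KMT2D peaks they hold (horizontal axis), a panel for each gene; the coloured line marks the gene's own window. Most other windows hold 0 peaks on chromosomes 4, 10, 2 and 11, and the median is 2.5 on chromosome 19.

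The peaks were tall for the list. Height is the authors' deposited whole number per peak, in units that are not stated, and is used only to rank peaks within the list. Over the 26 peaks the median height was 67.5 (95% interval of the median 47 to 78; range 27 to 119), against 39 (39 to 40) for all other peaks and 41 (40 to 42) for the other 6453 peaks of the same 5 chromosomes. Among the highest-scoring 50% of peaks the medians were closer, at 73 in the windows and 59 in the list. At a minimum height of 26 they were 67.5 and 47. A height above 59, the upper quartile of the list, was reached by 15 of 26 peaks (57.7%; exact binomial interval 36.9 to 76.6%), against a background of 24.8% of 24772 peaks. At least 100 was reached by 3 of 26 (11.5%; 2.45 to 30.2%), an interval that includes the 4.13% of the list. Because heights differ between chromosomes, each peak was also held against its own. Of the 26, 20 stood above the median height of their chromosome (background 49.3%) and 13 above its upper quartile (background 24.4%). Copy number of the loci in this line was not measured, and heights were not corrected for it.

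**Figure D3:**
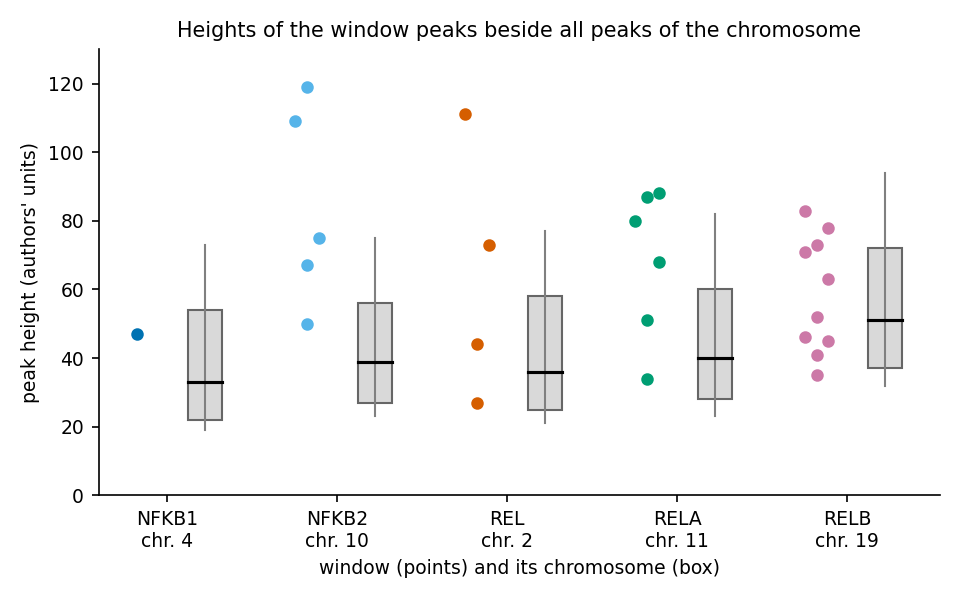
Height of each window peak in the authors' units (coloured points), beside all peaks of the same chromosome (box from the lower to the upper quartile, line at the median, whiskers from the 10th to the 90th percentile). All 5 NFKB2 peaks lie above the chromosome 10 median of 39, and the RELB peaks lie on both sides of the chromosome 19 median of 51.

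The peaks were also wide for the list. Their median width was 929 bp (745 to 1354 bp), against 608 bp (600 to 617 bp) for all other peaks. The difference was smaller without the weaker peaks. Among the highest-scoring 50% of peaks the medians were 1030 bp in the windows and 935 bp in the list. At a minimum height of 26 they were 929 and 744 bp. Widths over 2000 bp were found in 4 of 26 peaks (15.4%; 4.36 to 34.9%), a pair at NFKB2 and a single one each at REL and RELA, against a background of 2.22%. Widths up to 200 bp were found in 1 of 26, at RELB, against 21.0% of the list. In the windows 4.08% of bases lay under a peak, against 0.584% of the chromosome spans. By gene the covered share was 7.52% at RELA, 6.59% at NFKB2, 4.97% at RELB, 3.72% at REL and 0.760% at NFKB1. Wider peaks are taller throughout the list, so each peak was set beside the list peaks whose width lay within 10% of its own: 19 of 26 were taller than the median of these. By definition about as many list peaks lie above such a median as below it. The genes differed. The rest were the NFKB1 peak, REL peaks of height 44 and 27, RELA peaks of height 51, 68 and 34, and a RELB peak of height 45. Heights ran higher on chromosome 19, where RELB lies, and were not adjusted for this.

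**Figure D4:**
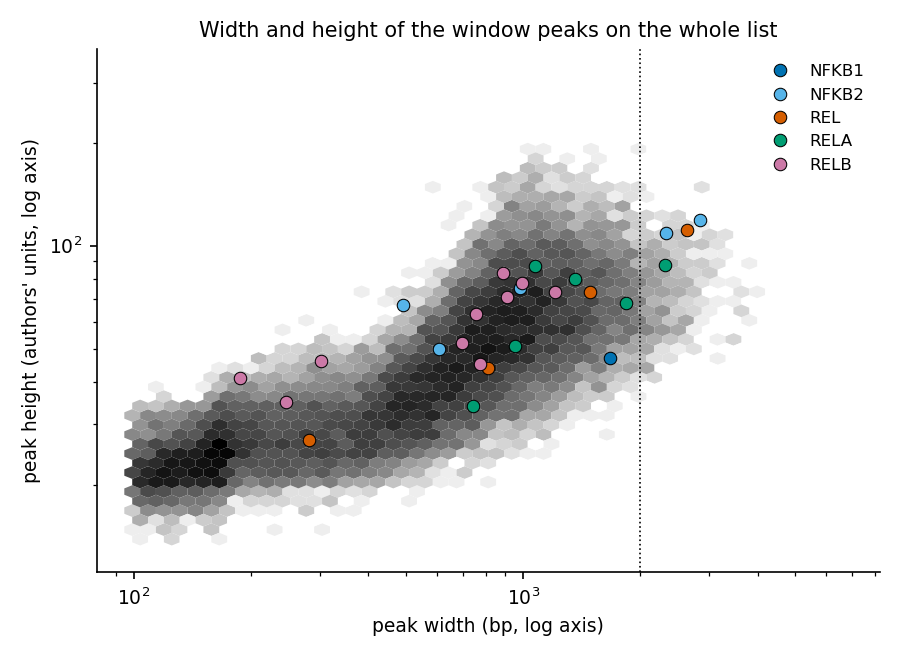
Width (bp) and height (authors' units) of the window peaks, coloured by gene, on log axes over the density of all peaks of chromosomes 1 to 22 and X (grey, darker where more peaks lie); the dotted line marks 2000 bp. The 4 peaks right of the line are the NFKB2 pair and the tallest REL and RELA peaks, and the NFKB1 peak lies low for its width.

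NFKB1, the p105 and p50 gene, had a single peak in its 220 kb window, at 103422104 to 103423777 on chromosome 4. It was 1673 bp wide, and only 4.62% of the list was wider, but its height was 47, with 38.7% of the list taller. Among 920 peaks of like width the median height was 70 and 89.2% were taller than this one. Within chromosome 4 its height ranked 277 of 853, above the chromosome's median of 33. The next peaks lay 155 kb away on one side and 258 kb on the other, outside the window, with heights of 88 and 53. Only 4.70% of all peaks, and 7.39% of those on chromosome 4, had their nearest neighbour that far away or farther. After the peak, 167 kb of the window held no further highest point. In the RefSeq order of protein-coding genes NFKB1 lies between SLC39A8 and MANBA, and the peak was not assigned to one of these genes over another.

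The window of NFKB2, the gene of p100 and p52, held the tallest peak of the 5 windows. Its 5 peaks had heights of 67, 109, 50, 119 and 75 in order of position, each above the chromosome 10 median of 39. The tallest, at 104178950 to 104181801, was 2851 bp wide with a height of 119. It ranked 6 of 1041 on chromosome 10 and 422 in the list, where 1.70% of peaks were taller and 0.432% were wider. The second tallest, at 104153525 to 104155845, was 2320 bp wide with a height of 109 and ranked 17 on the chromosome. Only 1.45% of the other same-width windows of chromosome 10 that held a peak had one as tall as 119.

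The NFKB2 peaks fell into 2 clusters and a lone peak, where a cluster joins peaks at most 12.5 kb apart. The cluster at 104153525 to 104159648 joined the peak of height 109 to one of height 50 across a gap of 3.20 kb, and peaks covered 47.8% of it. The cluster at 104178950 to 104192708 joined the tallest peak to one of height 75 across 9.93 kb. The lone peak, at 104121333 to 104121823, was only 490 bp wide and reached a height of 67. Among 1735 peaks of like width the median was 35 and 0.980% were taller. A further peak of height 63, at 104209473 to 104210870, overlapped the window's end, but its highest point lay 0.328 kb outside and it was not counted. The RefSeq order of protein-coding genes runs GBF1, NFKB2, PSD, FBXL15, so the peaks of this window cannot be assigned to NFKB2 alone.

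**Figure D5:**
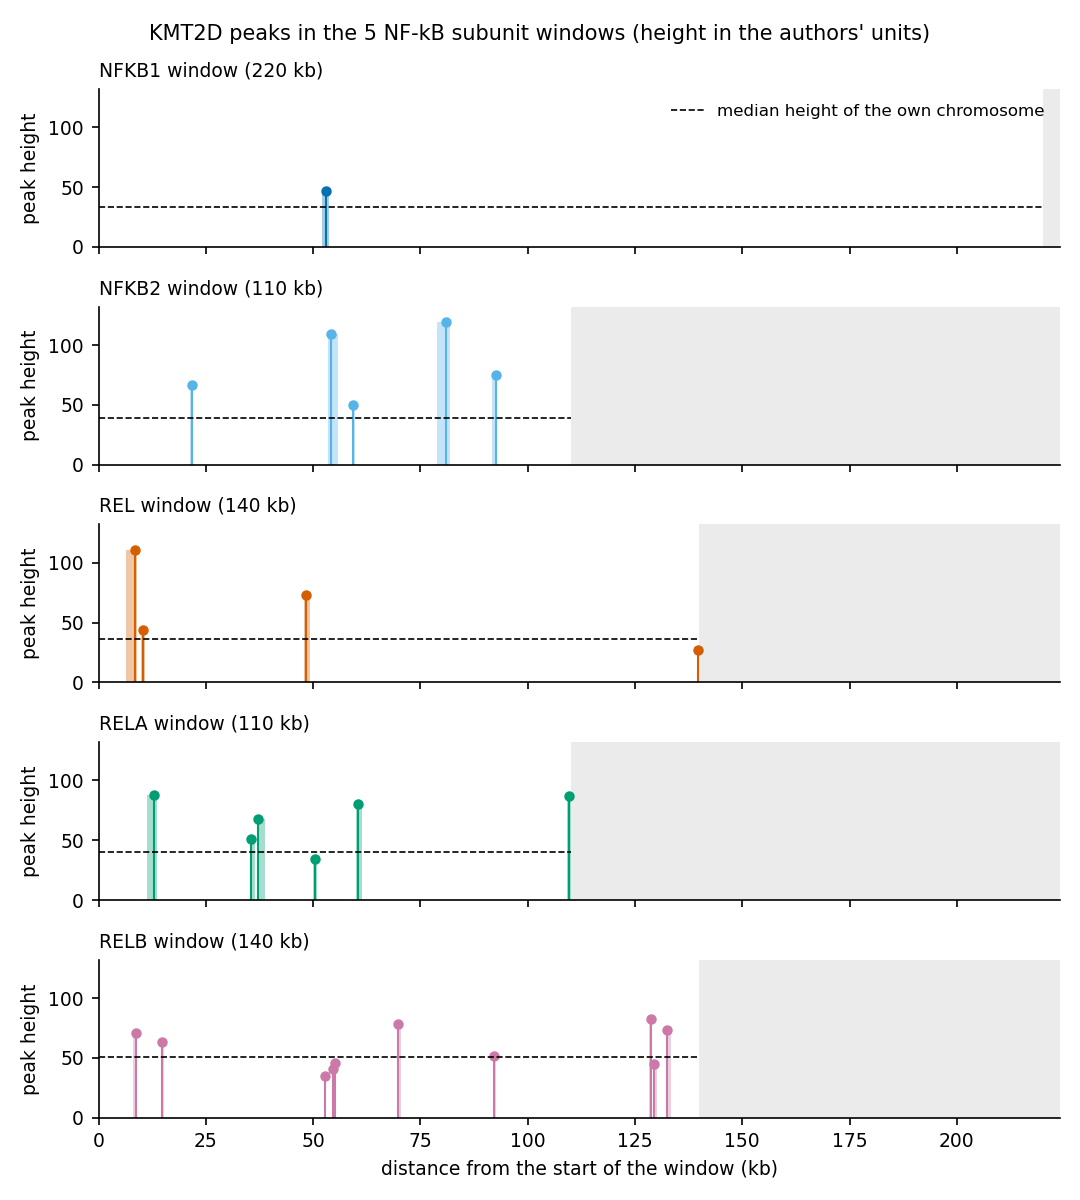
Height (authors' units) of each KMT2D peak against the distance of its highest point from the start of the window (kb), with shaded bars as wide as the peak; the dashed line is the median height of the chromosome and grey marks the space beyond the window. NFKB1 has 1 peak of height 47, NFKB2 has peaks of 109 and 119, REL has its tallest peak of 111 near the window's start, and the RELA and RELB peaks are spread over several groups.

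REL, which encodes c-Rel, had 4 peaks of very unequal size, with heights of 111, 44, 73 and 27 in order of position. The first, at 61066370 to 61069006 on chromosome 2, was 2636 bp wide, ranked 28 of 1718 on the chromosome and 587 in the list, where 2.37% of peaks were taller. By the authors' significance value it was the strongest of all 26 peaks, at -90.6 against a list median of -28.0, a lower value being a stronger peak. A peak of 812 bp and height 44 followed after 0.957 kb, and peaks covered 78.3% of the 4.41 kb that the pair spans. The third peak, at 61107790 to 61109270, stood alone, 37.02 kb after the pair and 90.3 kb before the next, with a width of 1480 bp and a height of 73; 13.7% of the list was taller. The fourth was 281 bp wide with a height of 27, the lowest of the 26, and its highest point lay 0.279 kb inside the window's end. The neighbours of REL in the RefSeq order of protein-coding genes are PAPOLG and PUS10, and no peak was assigned to one of these genes over another.

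RELA, the p65 gene, had 6 peaks with heights of 88, 51, 68, 34, 80 and 87 in order of position; 5 of them exceeded the chromosome 11 median of 40. The tallest, at 65381324 to 65383638, was 2314 bp wide and ranked 99 of 1297 on the chromosome, with 6.98% of the list taller. It was the only RELA peak outside a cluster. The middle 4 peaks formed a cluster of 25.9 kb at 65405412 to 65431264, of which 18.9% was covered. In it, peaks of 952 bp and 1838 bp were separated by 0.469 kb, and both had their highest point near the lower-coordinate edge, at 14% and 16.9% of the width. A 745 bp peak of height 34 lay in the same cluster, with 88.3% of 2710 peaks of like width taller, and was followed by a peak of 1354 bp and height 80 at 65429910 to 65431264. The sixth peak, of height 87, had its highest point 0.266 kb inside the window's end and was clustered with a peak of height 106 just outside it. Of the other same-width windows of chromosome 11 that held a peak, 18.4% held a peak as tall as 88. SIPA1 and KAT5 are the neighbours of RELA in the RefSeq order of protein-coding genes, and the peaks of this window were not assigned to RELA over other genes.

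The window of RELB, the partner of p52 in the alternative route, held the most peaks but not the tallest. Its 10 heights ran from 35 to 83 with a median of 57.5 (95% interval 41 to 78, which includes the chromosome 19 median of 51), and 6 of 10 lay above that median. The median width was 764.5 bp (246 to 990 bp), the lowest of the family. The tallest peak, at 45578161 to 45579050, had a height of 83 and ranked 245 of 1570 on chromosome 19; 8.60% of the list was taller, but 15.5% of chromosome 19. Of the other same-width windows of the chromosome that held a peak, 46.2% had one as tall.

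The RELB peaks formed 3 clusters and a pair of lone peaks. The cluster at 45502627 to 45505347 held 3 narrow peaks within 2.72 kb, of 246, 187 and 302 bp and with heights of 35, 41 and 46. Of the list peaks of like width, 12.1% of 964 were taller than the peak of height 35. For the peaks of height 41 and 46 these shares were 0.982% of 1324 and 3.56% of 1095. On chromosome 19, however, 78.8%, 66.2% and 57.5% of peaks of any width were taller, in the same order. The lowest height listed there was 26, against 15 on chromosome 4, 17 on chromosome 2 and 19 on chromosomes 10 and 11. Peaks of like width within chromosome 19 were not compared. The peak of height 35 had a significance value of -15.2, near the weakest value in the list, -15.0002. Of all peaks, 99.7% had a lower value. The cluster that began at 45578161 held 5 peaks, of which 3 lay in the window, with heights of 83, 45 and 73, and its tallest member lay beyond the window's end. The third cluster, at 45458117 to 45465170, joined peaks of height 71 and 63. The lone peaks had heights of 78, at 45519520 to 45520510, and 52, at 45542009 to 45542703. CLPTM1 and CLASRP are the neighbours of RELB in the RefSeq order of protein-coding genes, and the peaks of this window were not assigned to RELB over other genes.

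Over all 5 genes, 19 of 26 peaks (73.1%; exact binomial interval 52.2 to 88.4%) lay in 8 clusters, against 63.4% of the list, a background that the interval includes. A nearest neighbour under 500 bp away was found for 6 of 26 (23.1%; 8.97 to 43.6%), near the background of 27.3%. With clusters joined at 5 kb instead, 46.2% of the 26 peaks were clustered, below the 50.8% of the list, so the direction of the difference from the list depended on the distance. At 25 kb the share was 84.6%, above the list's 73.7%. The other settings, at 12.5 kb, also gave shares above the list. These were 70% against 36.5% in the highest-scoring 50%, 73.1% against 54.4% at a minimum height of 26, and 69.6% against 50.9% after merging peaks under 500 bp apart. By tallest peak the order of the windows was NFKB2 (119), REL (111), RELA (88), RELB (83) and NFKB1 (47). With 1 library no spread is known against which neighbours in this order could be told apart. It is an order of windows, as the peaks were not assigned to genes.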

How the data were processed

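ChIP-seq with an antibody against KMT2D and an input were made from OCI-LY7 cells; 1 peak list was analysed. The submitters' processing notes name CASAVA 1.8.2 and the build hg19. Which aligner and peak caller were used, with what threshold and input, is not given in the sources used here. With 11 columns and no header in the list, columns were read from their values. The authors deposited a positive score and a negative significance score per peak (finite values from -199.991 to -15.0002), and a whole-number signal, read as peak height; whether the signal was normalized is not stated. The deposited percent column gives the highest point's place between start and end. Scores and heights are the authors' and only rank or describe peaks within this list. The depth is unknown. Coordinates are as listed; whether they count from 0 or 1 is not stated.

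Peaks were assigned to a window by their highest point. The 24772 peaks on chromosomes 1 to 22 and X served as the background, with density taken over each chromosome's span between its outermost peaks. Peaks at most 12.5 kb apart were joined into clusters. No test was possible with 1 ChIP library. Intervals at 95% are exact Poisson, exact binomial or by order statistics. Members and settings were chosen with earlier results of these data known. All 5 genes were named, with the tallest and widest peak and the largest cluster of each; other peaks were described after their values were seen. The comparisons with peaks of like width, with neighbour distances and with the kappa B consensus were also chosen after the peaks were seen. Alternatives were the highest-scoring 50% of peaks, a minimum height of 26, merging under 500 bp, assignment by overlap, windows 25 kb wider at each edge, covered bases, stitching at 5 and 25 kb and other ranks. Functions were tested on simulated data. Python 3.11.15 was used with scipy 1.17.1, pandas 2.3.3, matplotlib 3.10.9 and numpy 2.4.6.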

Additional observations from a re-analysis of the deposited data

How the results depend on the processing

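Of 133 alternative values, 115 stayed within the counting interval of the main value (within the range of the window's peaks where fewer than 6 gave a median, or within 1.5 times for counts) and 18 moved. Some could hardly move, so this tally is no measure of stability. The lowest window peak had a height of 27, so the cut at 26 left window densities and medians as they were. The values they were set against did change. The list median rose from 39 to 47 in height and from 609 to 744 bp in width. Over the 5 windows the density relative to the own chromosomes became 3.93. At NFKB1 the ratio rested on 1 peak, with an interval of 0.0257 to 5.67. Over the 5 windows the density relative to the own chromosomes was 3.41 by peak number and 5.74 by covered bases, which follows from the greater peak widths. By gene, covered bases and the highest-scoring 50% of peaks moved this ratio by over 1.5 times at NFKB1, NFKB2, REL and RELA, within wide counting intervals, and not at RELB. The share of peaks above a window's tallest peak changed with the ranking. Within the own chromosome it was 32.4% for NFKB1, 0.480% for NFKB2, 1.57% for REL, 7.56% for RELA and 15.5% for RELB. By score it was 44.2% for NFKB1, 2.20% for NFKB2, 8.24% for RELA and 5.37% for RELB, and by significance value 36.0% for NFKB1, 2.31% for NFKB2, 1.43% for REL and 11% for RELB. Stitching at 5 kb put 46.2% of the peaks in 5 clusters, below the list's 50.8%, whereas at 12.5 kb the members (73.1%) lay above the list (63.4%). At 25 kb the members (84.6%) also lay above the list (73.7%). In the order by density, 3 of 5 windows kept their place among the highest-scoring 50% of peaks, where NFKB2 led with 45.5 peaks per Mb, RELA had the same value and RELB had 42.9, and 3 of 5 after merging peaks under 500 bp apart. The order by tallest peak was the same under the cuts and the merging. These settings kept the tallest peak of every window with its height, so they could not test this order. No paired analysis was possible because there was 1 ChIP library and no test. The depth is unknown, so the stretches without a listed peak around NFKB1 cannot be called unbound.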
